A study of Homo sapiens with 6 samples.

Results

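The cytosolic ribosomal protein genes changed little when Caspase-8 was silenced in U87 cells, an established human glioblastoma line. The genes were taken from the deposited expression table by their symbols: RPL or RPS with a number and at most a single A or X after it, plus RPLP0, RPLP1, RPLP2 and RPSA. That gave 77 of the 23290 genes in the table, with pseudogenes and paralogs of symbols ending in L left out. Of these, 76 were tested: 43 of the large subunit, 30 of the small subunit and 3 of the stalk.

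RNA was measured in 3 libraries of cells infected with a retrovirus that silences Caspase-8 (shC8) and in 3 libraries of cells infected with a retroviral scramble vector (shCTR). Both groups were U87 cells grown in DMEM with 10% serum, and both had been through retroviral infection, so uninfected cells are not part of the comparison. Neither the sequence nor the number of the hairpins is given in the sources used here, and the design text names 3 biological replicates a group without describing the cultures. The p-values therefore measure the spread between these samples.

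Cytosolic ribosomes are built in the nucleolus from ribosomal RNA and ribosomal proteins, and then read messenger RNAs in the cytoplasm. The messengers for the proteins themselves mostly start with a cytosine followed by a run of pyrimidines, the 5′ terminal oligopyrimidine tract or TOP, through which LARP1 and the kinase complex mTORC1 control their translation and stability. Proliferating tumour lines such as U87 spend a large share of their transcripts on these genes.

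The start regions of the ribosomal protein genes often held this tract. RefSeq promoters (assembly GRCh38.p14) were found for 62 of the 77 genes. A cytosine at the annotated start followed by at least 4 pyrimidines, read only on the strand with the sense of the RNA, stood in 42 of them (67.7%). It stood in 1104 of all 27305 RefSeq promoters (4.04%) and in 5.66% of the promoters of tested genes. A tract of at least 5 bases that began with a cytosine within 10 bases of the start was present in 55 of the 62 (88.7%), against 33.3% of all promoters. Below are the starts of genes described in the results, from 10 bases before the annotated start to 20 bases from it, 5′ to 3′, with that pyrimidine tract in capitals. They are shown because most of the family has such a tract while its members differed in level and in direction. At the annotated start itself RPL4 and RPL11 had no tract, and that of RPS7 was 3 bases long. RPL13, the gene of lowest level, is 1 of 7 members with a promoter but no such tract within 10 bases of the start. Over the 62 members, tract length at the start and mean FPKM had a Spearman's rho of -0.0131. EIF3K is a translation initiation factor gene whose pattern over the libraries was the most like that of the family.
RPL4 (chr15:66504836-66504865, minus strand): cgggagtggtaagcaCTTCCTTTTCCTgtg
RPS7 (chr2:3575250-3575279, plus strand): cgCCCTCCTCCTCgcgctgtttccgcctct
RPL11 (chr1:23691769-23691798, plus strand): cctggcccataaggCCCTCggccggaagct
RPS6 (chr9:19380217-19380246, minus strand): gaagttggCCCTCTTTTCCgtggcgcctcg
RPL21 (chr13:27251548-27251577, plus strand): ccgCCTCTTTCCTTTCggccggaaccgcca
RPL26 (chr17:8383174-8383203, minus strand): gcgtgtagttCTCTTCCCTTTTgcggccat
RPLP0 (chr12:120201092-120201121, minus strand): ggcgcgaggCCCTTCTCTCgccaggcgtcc
RPLP1 (chr15:69452808-69452837, plus strand): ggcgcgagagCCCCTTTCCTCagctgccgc
RPSA (chr3:39406710-39406739, plus strand): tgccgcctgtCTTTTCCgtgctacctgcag
RPS9 (chr19:54200848-54200877, plus strand): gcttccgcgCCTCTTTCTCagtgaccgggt
RPL41 (chr12:56116623-56116652, plus strand): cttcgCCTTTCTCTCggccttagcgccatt
RPL13 (chr16:89560647-89560676, plus strand): tgctatcatcccagagtgcattgcggggcc
EIF3K (chr19:38619178-38619207, plus strand): tttccaccaCCTCTTCCTgttcccgtcctt

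The silenced gene went the way of the labels. CASP8, which encodes the initiator protease of death receptor signalling, stood at 4.39, 4.46 and 4.44 FPKM (fragments scaled by transcript length and library size) in shC8 and at 15.1, 14.9 and 13.4 FPKM in shCTR, a change of -1.51 on the log2(FPKM + 1) scale (SE 0.0705, limma adjusted p = 0.000206). By exact permutation of the 6 libraries, two-sided, p was 0.1, and no smaller p is possible with 3 libraries a group. Absolute depth is unknown, and steps among the lowest values put the other 5 libraries at 1.10 to 1.20 times the depth of shCTR 1. Of the glial and glioblastoma markers, VIM, NES, CD44, CHI3L1 and EGFR were present, whereas GFAP, S100B, SOX2 and OLIG2 stayed at or under 0.511 FPKM in all libraries. NES was higher in shC8 (log2 change 0.60, limma adjusted p = 0.0293) and CD44 lower (-0.45, 0.0131). CD3E was listed at 0, and PTPRC and CD14 stayed at or under 0.315 FPKM while CD68 stood between 135 and 151 FPKM in shC8 and between 148 and 157 in shCTR, and the 3 endothelial markers summed to at most 0.161 FPKM in shC8 and 0.260 in shCTR. The 5 fibroblast or pericyte markers summed to between 43.8 and 86.3 FPKM in shC8 and between 26.1 and 33.0 in shCTR, with PDGFRB and COL1A1 higher in shC8, and their part in the results below was not tested.

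The family spanned a 47.1-fold range of mean level, and its order was close to continuous. The highest means over the 6 libraries were those of RPL26 (3757 FPKM), RPL11 (2804), RPL37A (2300), RPL41 (2158) and RPL36A (2057), all genes of large subunit proteins, and the lowest were those of RPL13 (79.8), RPL22 (139) and RPS23 (151). The median gene stood at 563 FPKM, with 21 genes over 1000 FPKM, 54 between 100 and 1000, and 1 under 100. The 10 highest genes made up 35.2% of the family's summed FPKM. Of the 75 pairs of neighbours in this order, only 2 had values that did not overlap over the 6 libraries, so most neighbours were not separated beyond their spread. FPKM is a level per length, and estimates for short genes with many copies are uncertain: GENCODE 29 lists 1133 pseudogenes of these 77 genes, and reads shared with them may have been split. The deposited values cover 28 such pseudogenes, which summed to between 586 and 896 FPKM in shC8 and between 537 and 637 in shCTR. No values are given for the rest.

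**Figure D1:**
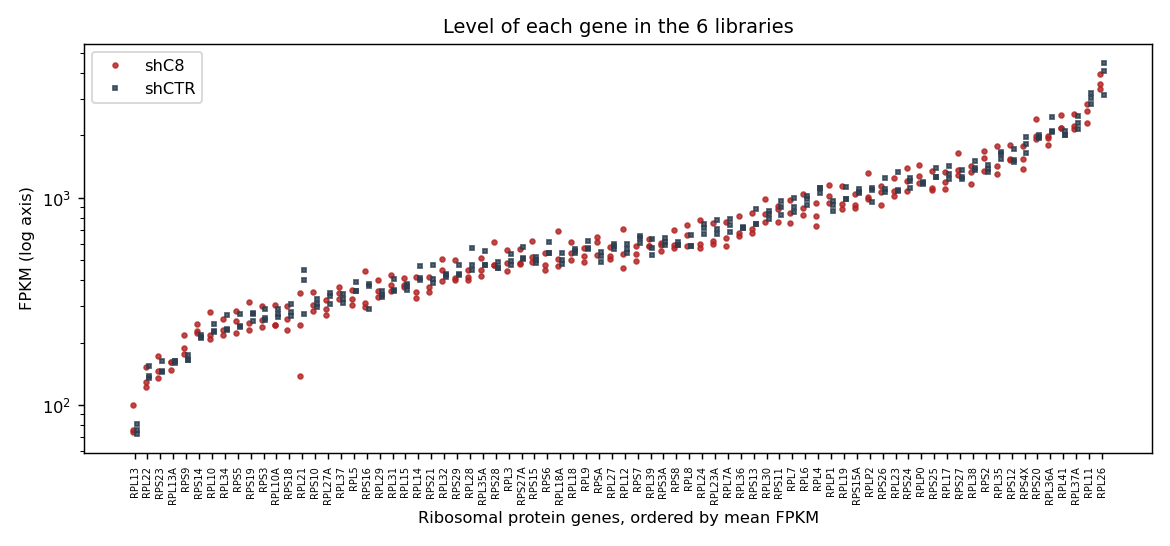
Level of the 76 tested ribosomal protein genes in each library, in FPKM on a log axis, with genes ordered from the lowest to the highest mean; circles are the 3 shC8 libraries and squares the 3 shCTR libraries. The means run from 79.8 FPKM for RPL13 to 3757 FPKM for RPL26, and the points of both groups lie together for most genes, with RPL21 the most scattered.

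Against shCTR, the log2 changes of the family lay in a narrow band. Of the 76 genes tested, none rose and 1 fell, RPL4 (limma on log2(FPKM + 1), Benjamini-Hochberg adjusted p under 0.05 over all 11598 genes tested), which is 1.32% of the family. Among all genes tested 12.1% were called, 7.14% higher and 4.94% lower in shC8. At an unadjusted p under 0.05, 0 members were higher and 2 were lower, RPL4 and RPS7. The counts over all 11598 genes at that limma threshold were 2125 higher and 1324 lower. The family's median log2 change was -0.04, with quartiles of -0.12 and 0.05, and 29 changes were positive and 47 negative. Over all genes tested the median was 0.04, with quartiles of -0.10 and 0.17. In 74 of the 76 genes (97.4%) the log2 change lay within 0.25 of 0, against 74.3% of all genes tested. The exceptions were RPL4 and RPL21. Among lists described below, that share was 92.5% for initiation factors and 91.3% for other genes known for a 5′ TOP. It was 87.5% for elongation and release factors, 86.8% for mitochondrial ribosomal proteins and 85.2% for ribosome biogenesis.

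The narrow band did not come with tighter libraries. The residual SD of log2(FPKM + 1) had a median of 0.130 over the family, 0.109 over all tested genes and 0.104 over the other 776 tested genes of at least 100 FPKM. The 95% interval of the log2 change reached 0.243 to either side in the median member and 0.211 in the median gene. The whole interval lay within 0.5 of 0 in 73 members (96.1%), against 74.3% of all genes. The share was 95.7% for the other TOP genes and 95% for initiation factors. A log2 change of 0.5 or more thus lay outside the interval for all members but RPL4, RPL11 and RPL21. Smaller changes were not resolved for most members by 3 libraries a group. Because the RNA came from whole cultures, fewer cells with a transcript and less of it in each cell cannot be told apart.

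**Figure D2:**
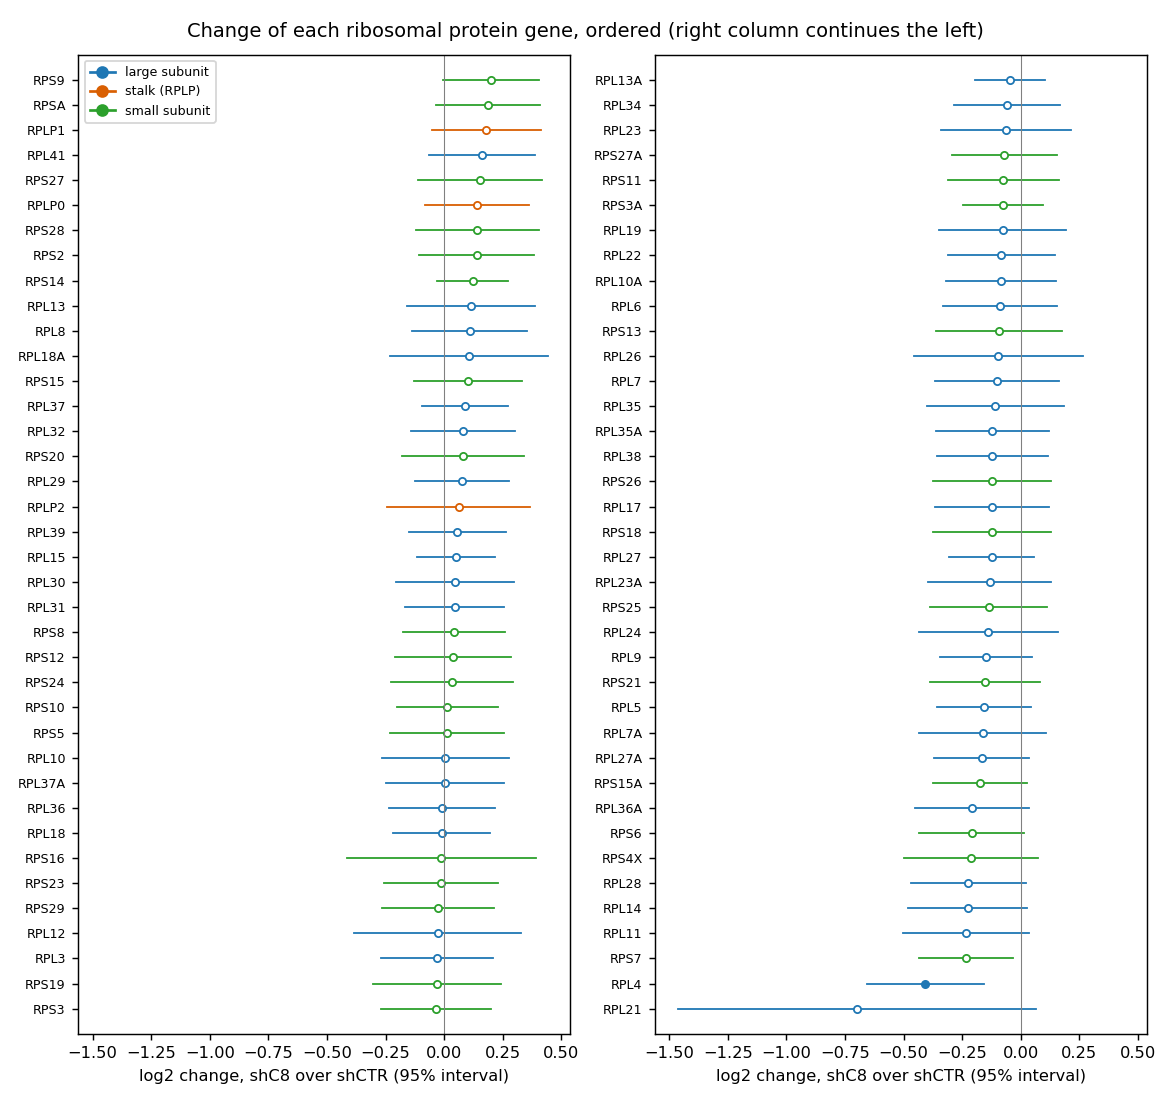
Log2 change of each ribosomal protein gene, shC8 over shCTR, on the log2(FPKM + 1) scale, with its 95% interval; blue marks the large subunit, green the small subunit and orange the stalk, and the filled point passed the test. The changes run from 0.20 for RPS9 to -0.70 for RPL21, and RPL4 at -0.41 is the only filled point.

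RPL4 was the member that passed. It encodes a large subunit protein that lines the exit tunnel for the growing peptide. The gene (ENSG00000174444) lies on the minus strand at chr15:66498015-66524532 of GRCh38 and holds 5 annotated small nucleolar RNAs within its bounds. RPL4 stood at 942, 727 and 812 FPKM in shC8, against 1111, 1054 and 1110 FPKM in shCTR. Every shC8 library was below every shCTR library. The mean was 827 ± 108 FPKM in shC8 and 1091 ± 32.6 FPKM in shCTR (SD, n = 3 each), a ratio of 0.758. The log2 change was -0.41 (SE 0.107, 95% interval -0.66 to -0.16, limma adjusted p = 0.0491). The value sits at the edge of the threshold: of the 6 fits that each left out 1 library, only that without shC8 1 still called it, and without shC8 2, shC8 3 or any of the shCTR libraries the adjusted p lay between 0.108 and 0.153, with log2 changes from -0.43 to -0.32. With the replicate number as a block the adjusted p was 0.0124.

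Other large subunit genes with the lowest changes had groups that overlapped, apart from RPL36A. RPL21 had the largest change and the largest spread of the family: 242, 137 and 346 FPKM in shC8, against 403, 274 and 449 FPKM in shCTR. The level in shC8 3 exceeded that in shCTR 2, and the log2 change of -0.70 had an interval of -1.46 to 0.06 (SE 0.328, limma adjusted p = 0.201). In each same-numbered pair RPL21 was lower in shC8, and with the block the adjusted p was 0.00978. GENCODE 29 lists 66 pseudogenes of RPL21, and their part in its values was not tested. RPL21 had a residual SD of 0.541. Across the 76 members, pseudogene number and residual SD had a Spearman's rho of 0.00289 and a Pearson's r of 0.290.

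RPL11 and RPL5 encode the proteins that travel with 5S ribosomal RNA and, when not in a ribosome, bind the ubiquitin ligase MDM2. RPL11 measured 2836, 2283 and 2628 FPKM in shC8 and 3204, 2836 and 3038 FPKM in shCTR. The highest shC8 value met the lowest shCTR value, and the log2 change was -0.23 (SE 0.115, limma adjusted p = 0.223, 0.0398 with the block). For RPL5 the values were 358, 305 and 323 FPKM in shC8 and 392, 353 and 354 FPKM in shCTR, a log2 change of -0.16 (SE 0.0855, adjusted p = 0.262). RPL23, whose product also binds MDM2, changed by -0.06 on the log2 scale (adjusted p = 0.756), and its groups overlapped.

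RPL36A, a protein of the tRNA exit site region, separated the groups without passing the test: 1946, 1790 and 1984 FPKM in shC8, against 2456, 2095 and 2074 FPKM in shCTR. Its log2 change was -0.21 (adjusted p = 0.228). RPL14, RPL28 and RPL27A, further large subunit genes picked here after their values were seen, changed by -0.23, -0.23 and -0.17, with adjusted p of 0.211, 0.200 and 0.240. RPL41, the smallest of the proteins, lay on the other side, at 2503, 2168 and 2172 FPKM in shC8 and 2092, 2015 and 1999 FPKM in shCTR. Each shC8 library exceeded each shCTR library, yet the log2 change of 0.16 did not pass (SE 0.0969, adjusted p = 0.308).

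The other large subunit genes described by name lay near 0. RPL26, the most abundant member, measured 3963, 3351 and 3535 FPKM in shC8 and 4090, 4480 and 3124 FPKM in shCTR, so the shCTR libraries enclosed the shC8 ones. RPL3, which reaches into the peptidyl transferase centre, changed by -0.03, and RPL10, a protein added late in subunit maturation, by 0.00. RPL39 of the exit tunnel changed by 0.06, RPL38, known in mice for the translation of Hox messengers, by -0.12, RPL22 by -0.08, RPL37A by 0.00 and RPL13 by 0.11. The limma adjusted p of these genes lay between 0.461 and 0.989, and each had overlapping groups. Over the 43 genes of the large subunit the median log2 change was -0.08, with 13 positive and 30 negative.

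The 3 stalk genes encode the proteins that recruit and activate translation factors, and all had positive changes that did not pass. RPLP0, the anchor of the stalk, measured 1440, 1182 and 1276 FPKM in shC8 and 1190, 1171 and 1164 FPKM in shCTR (log2 change 0.14, SE 0.0953, adjusted p = 0.363). RPLP1 measured 1156, 939 and 1023 FPKM in shC8 and 919, 865 and 960 FPKM in shCTR (log2 change 0.18, SE 0.0999, adjusted p = 0.271). In both genes shC8 1 was the highest library and shC8 2 lay within the shCTR values. RPLP2, which pairs with RPLP1, changed by 0.06 (adjusted p = 0.789).

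In the small subunit, 13 genes had positive and 17 negative changes, with a median of -0.02 and none called. RPS7, whose protein is needed for small subunit assembly, measured 583, 494 and 536 FPKM in shC8 and 638, 602 and 655 FPKM in shCTR. The groups did not overlap, and the log2 change was -0.23 (SE 0.0858, limma adjusted p = 0.118, 0.0297 with the block). RPS6, the substrate of the S6 kinases, measured 542, 450 and 474 FPKM in shC8 and 612, 540 and 543 FPKM in shCTR. Only shC8 1 exceeded the lowest shCTR value, and the log2 change was -0.21 (SE 0.0965, adjusted p = 0.194, 0.0278 with the block). RPS4X, encoded on the X chromosome, changed by -0.21 (adjusted p = 0.289, 0.0398 with the block).

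On the positive side, RPS9, whose bacterial counterpart bears on the accuracy of decoding, measured 217, 175 and 189 FPKM in shC8 and 174, 164 and 165 FPKM in shCTR. Its groups just failed to overlap, and the log2 change was 0.20 (SE 0.0875, limma adjusted p = 0.173, 0.0505 with the block). RPSA, also known as a laminin receptor, measured 646, 528 and 611 FPKM in shC8 and 492, 524 and 546 FPKM in shCTR (log2 change 0.19, adjusted p = 0.230). Here shC8 2 lay below shCTR 3. RPS27 changed by 0.15 (adjusted p = 0.405).

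RPS3 at the messenger entry channel changed by -0.04, RPS19, a gene mutated in Diamond-Blackfan anaemia, by -0.03, RPS27A, made as a fusion with ubiquitin, by -0.07, and RPS23 of the decoding centre by -0.01. None of these 4 passed, with adjusted p between 0.667 and 0.950, and their groups overlapped.

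In 3 members all shC8 values were higher (RPL41, RPS14 and RPS9) and in 4 they were lower (RPL36A, RPL4, RPS15A and RPS7), together 9.21% of the family. Among all genes tested 34.8% had groups that did not overlap, 21.7% higher and 13.1% lower in shC8. In same-numbered pairs, 10 members (13.2%) were higher in shC8 in all 3 pairs, 30 (39.5%) were lower in all 3 and 36 were mixed. The shares over all tested genes were 36.3% higher and 24.5% lower in all 3 pairs. With the replicate number as a block 8 members were called lower (RPL11, RPL14, RPL21, RPL27A, RPL4, RPS4X, RPS6 and RPS7) and 0 higher, where 26.6% of all genes were called, 10.6% lower and 16.1% higher. Over the members alone, deviations of same-numbered libraries correlated across genes at -0.0652 in the first pair, 0.698 in the second and 0.345 in the third. Such a correlation leaves out a shift shared by all members. Members above their own mean numbered 72 in shC8 1 and 59 in shCTR 1, 2 in shC8 2 and 19 in shCTR 2, and 18 in shC8 3 and 37 in shCTR 3. No label says that the libraries are paired.

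The members moved together from library to library within both groups. Their summed level was 66726, 54206 and 58278 FPKM in shC8, or 12.9%, 11.1% and 11.9% of the column sums. In shCTR the sum was 65130, 59934 and 60115 FPKM, or 13.0%, 12.0% and 12.2%. The highest sum and the lowest sum were both in shC8, and the shC8 values enclosed those of shCTR. The group means were 59737 ± 6386 FPKM in shC8 and 61726 ± 2949 FPKM in shCTR (SD, n = 3 each), a ratio of 0.968. Of the 76 members, 42 had their highest value in shC8 1 and 29 in shCTR 1, while 53 had their lowest value in shC8 2.

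Measured against each gene's own mean over the 6 libraries, the median member stood at 0.15, -0.16 and -0.06 on the log2 scale in shC8 1, 2 and 3, and at 0.11, -0.04 and -0.01 in shCTR 1, 2 and 3. The other tested genes had medians between 0.00 and 0.04 in shC8 and between -0.02 and -0.01 in shCTR. The median of the other genes thus moved less between libraries than that of the members. Other genes known for a 5′ TOP had medians of 0.06, -0.17 and -0.07 in shC8 and 0.09, 0.00 and 0.09 in shCTR. For other genes of at least 100 FPKM the medians were 0.07, -0.04 and -0.02 in shC8 and 0.02, -0.02 and -0.01 in shCTR. The 76 mitochondrial ribosomal protein genes had medians of 0.14, -0.15 and -0.07 in shC8 and 0.10, -0.01 and 0.02 in shCTR, in the same order over the shC8 libraries. Other genes with coding sequences under 600 bases, a class as short as the members, had medians of 0.10, -0.02 and -0.02 in shC8 and 0.00, -0.02 and -0.04 in shCTR. Their shift in shC8 1 went with that of the members, and in shCTR 1 and shC8 2 it was nearer 0. The part of transcript length in the result was not tested.

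**Figure D3:**
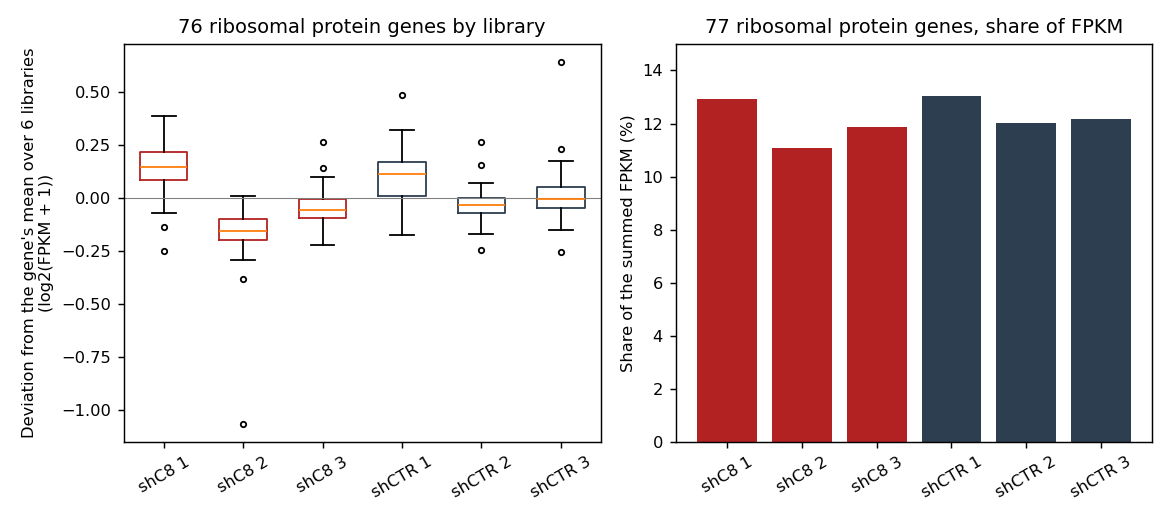
Left, deviation of the 76 tested members from each gene's own mean over 6 libraries, on the log2(FPKM + 1) scale, as 1 box a library (line, median; box, quartiles; whiskers, 1.5 times the box; circles, genes beyond); right, share of the summed FPKM held by all 77 members, in percent. The boxes of shC8 1 and shCTR 1 lie above 0 and that of shC8 2 below it, and the share runs from 11.1% in shC8 2 to 13.0% in shCTR 1.

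The sign of the family's median change therefore depended on the libraries compared. The names of the deposited columns carry numbers of a lower range for shC8 1, shCTR 1 and shCTR 3 and of an upper range for shC8 2, shC8 3 and shCTR 2, and no source used here says what they mean. The median member changed by 0.11 within the lower range, where 20 members were lower in shC8, and by -0.08 within the upper range, where 54 were lower. The median over all tested genes was 0.06 and 0.03 in these ranges. RPL4 changed by -0.24 in the lower and by -0.46 in the upper range, and with the range as a term its adjusted p was 0.0535. Without shC8 1 the median change of the family was -0.13, without shC8 2 it was 0.02, and with the range as a term and all libraries it was also 0.02.

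The ratio of the summed large subunit to the summed small subunit FPKM separated the groups. It was 1.74, 1.75 and 1.77 in shC8 and 1.81, 1.84 and 1.78 in shCTR, with means of 1.75 ± 0.0154 and 1.81 ± 0.0304 (SD, n = 3 each). The stalk genes count with the large subunit here. As a sum over chosen genes the ratio was given no test.

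Single members followed the family to different degrees. Over the 6 libraries, the correlation of a member's log2(FPKM + 1) with the mean of the other members had a median of 0.834. It was over 0.9 in 23 members and under 0.5 in 9, and RPSA (0.256), RPS14 (0.307), RPL28 (0.378) and RPL26 (0.389) had the lowest values. RPLP1, RPL41 and RPS9, described above, were also among those 9. Outside the family the 5 genes most like its mean were EIF3K (r = 0.995), the pseudouridine synthase gene TRUB2 (0.992), the zinc transporter gene SLC30A6 (0.992), the mitochondrial ribosomal gene MRPS9 (0.989) and the mitochondrial import gene TIMM22 (0.988). EIF3K measured 130, 98.1 and 109 FPKM in shC8 and 124, 112 and 117 FPKM in shCTR, in the same order of libraries as the family mean. These are descriptions over 6 libraries, and all genes of a library share its depth and preparation. A correlation over 0.9 was present in 2.63% of the other tested genes.

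Splits of the members by features of their genes gave medians close to each other, and none was tested. The median log2 change was -0.03 in the 42 members with a pyrimidine tract at the annotated start and -0.08 in the 20 with a promoter but no such tract. It was -0.03 in the 28 members that host annotated small nucleolar RNAs, 60 RNAs in all, and -0.07 in the other 48. In the 39 members with 10 or more pseudogenes it was -0.06, and in the other 37 it was -0.03. Across the 76 members, Spearman's rho with the log2 change was -0.137 for coding length and -0.149 for the number of pseudogenes. Both describe the spread over genes, and genes are no replicates of a condition.

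Ribosomal proteins and paralogs whose symbols fall outside the naming rule lay on the lower side, and none of the 9 tested passed. FAU, which makes RPS30 as a fusion protein, changed by -0.12 on the log2 scale and GNB2L1, which encodes the scaffold RACK1, by -0.14. The paralog RPS27L measured 236, 186 and 200 FPKM in shC8 and 290, 236 and 269 FPKM in shCTR, so that shC8 1 all but reached shCTR 2. Its log2 change was -0.36 (SE 0.112, limma adjusted p = 0.0800, 0.00634 with the block). RPL36AL changed by -0.26 (adjusted p = 0.0655, 0.0147 with the block), RPL26L1 by -0.23 (0.0835, 0.0366 with the block), RPL22L1 by -0.23 (0.253), RPL7L1 by -0.07 (0.657) and RPL39L by 0.02 (0.950). RPL3L and RPL10L were listed at 0 in all libraries.

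Of 54 ribosome biogenesis genes, whose products build ribosomes without being part of them, 6 fell and none rose. That is 11.1% called, near the 12.1% over all tested genes, of which 4.94% were lower. Among the 54, 49 changes were negative and 5 positive, and the median log2 change was -0.10. NOLC1, a nucleolar chaperone of the particles that modify ribosomal RNA, measured 34.3, 30.6 and 32.1 FPKM in shC8 and 49.9, 44.5 and 47.4 FPKM in shCTR. All shC8 values were lower, and the log2 change was -0.53 (SE 0.0711, limma adjusted p = 0.00589), called in each of the 6 fits without 1 library.
WDR12, of the PeBoW complex of large subunit maturation, fell by 0.44 on the log2 scale (adjusted p = 0.0470), EFTUD1, a GTPase that frees late large subunits of EIF6, by 0.43 (0.0121) and NOP58, a core protein of box C/D particles, by 0.36 (0.0197). The other 2 were NOP56 and TSR1. WDR12 was called only without shC8 1 among those fits (up to adjusted p = 0.148), EFTUD1 was lost without shC8 3 (0.0542), and NOP58 without shC8 2 or shC8 3 (up to 0.0770). The count of 6 became 9 without shC8 1, 2 without shC8 2, 1 without shC8 3 and 3 without any single shCTR library, and it was 12 with the replicate block, where 10.6% of all genes were lower.

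Of the 76 mitochondrial ribosomal protein genes 5 fell and none rose, with a median log2 change of -0.07. That is 6.58% called, against 12.1% of all genes, 7.14% higher and 4.94% lower in shC8. MRPL37 measured 127, 108 and 113 FPKM in shC8 and 184, 161 and 178 FPKM in shCTR, without overlap, and its log2 change was -0.59 (SE 0.0846, limma adjusted p = 0.00792), called in each fit without 1 library. MRPL50 fell by 0.55 (0.0177), MRPL3 by 0.37 (0.0256), MRPS31 by 0.34 (0.0375) and MRPL35 by 0.30 (0.0314). MRPL50 was lost without shC8 2 or shC8 3, and MRPL3 and MRPS31 without any library but shC8 1, with adjusted p up to 0.120. The count of 5 was 14 without shC8 1, 1 without shC8 2 or shC8 3 and 2 without any single shCTR library. With the replicate block 9 were lower and 2 higher, where 10.6% of all genes were lower and 16.1% higher.

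**Figure D4:**
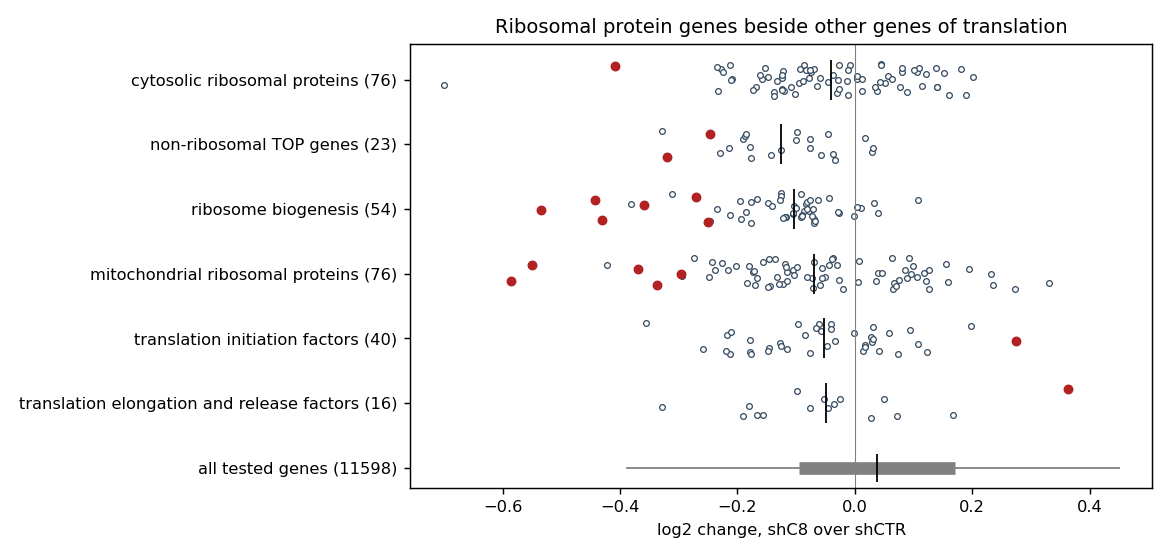
Log2 change, shC8 over shCTR, of the tested genes in 6 groups of translation genes (number tested in brackets); filled red points passed the test, black bars are medians, and the lowest row gives all 11598 tested genes by median, quartiles (thick) and the 5th to 95th percentile (thin). The members scatter around a median of -0.04 with 1 filled point, and ribosome biogenesis around -0.10 with 6.

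Among 23 other genes known for a 5′ TOP, 12 of 17 with a RefSeq promoter had the tract at the start (70.6%). None rose and 2 fell, the small nucleolar RNA host GAS5 (log2 change -0.32, adjusted p = 0.0289) and the splicing factor gene HNRNPA1 (-0.25, 0.0471), and the median was -0.13. GAS5 was called only without shC8 1 or shCTR 1 among the fits without 1 library (up to 0.0975), and HNRNPA1 in none of them (up to 0.134). With the replicate block 6 were called lower. The 40 initiation factor genes had a median of -0.05 and 1 call, EIF4E2, a cap-binding protein linked to repression (0.27, adjusted p = 0.0320), and with the replicate block 5 were lower and 1 higher. The 16 elongation and release factor genes had a median of -0.05 and 1 call, EEF2K, the kinase that inhibits elongation factor EEF2 (0.36, 0.0221), and with the replicate block 2 were lower (EEF1B2 and ETF1) and 1 higher. EIF4E2 lost its call without shC8 2, shC8 3, shCTR 2 or shCTR 3 (up to 0.113), and EEF2K without any library but shC8 1 (up to 0.0835). In the main fit 8.7% of these TOP genes, 2.5% of the initiation and 6.25% of the elongation and release factor genes were called. Over all tested genes 12.1% were called, 7.14% higher and 4.94% lower. With the replicate block 10.6% of all genes were lower and 16.1% higher.

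Of 20 tested genes that control translation through mTORC1 and MYC, upstream of the ribosomal protein genes, 2 rose and 3 fell. That is 25% called, against 12.1% of all genes. With the replicate block 3 were higher and 3 lower, where 16.1% of all genes were higher and 10.6% lower. Groups did not overlap in 35% of the 20, against 34.8% of all genes tested. With a library left out 1 to 2 were called higher and 1 to 3 lower. LARP1, the protein that binds the cap and the TOP, measured 16.1, 17.0 and 17.5 FPKM in shC8 and 27.7, 25.7 and 29.8 FPKM in shCTR, without overlap. Its log2 change was -0.68 (SE 0.0734, limma adjusted p = 0.00306), and it was called in each fit without 1 library. MXD4, an antagonist of MYC at its partner MAX, rose by 0.78 (adjusted p = 0.00557), also in each such fit.
DEPTOR, an inhibitor of mTOR, rose by 0.87 (0.0217) at low levels of 5.41, 3.47 and 5.53 FPKM in shC8 against 2.03, 1.75 and 2.69 FPKM in shCTR. RPS6KB1, the S6 kinase that acts on RPS6, fell by 0.35 (0.0274) and MAX by 0.30 (0.0200). DEPTOR lost its call without shC8 1, shC8 3, shCTR 1 or shCTR 2 (up to 0.0800) and RPS6KB1 without any library but shC8 1 (up to 0.0819). MYC and MTOR did not pass, with changes of -0.15 (0.590) and -0.08 (0.592).

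Once each column was scaled to the geometric mean of the members, an alternative chosen after the data were seen, RPL4 passed. Its log2 change was then -0.36 (SE 0.0625 in place of 0.107, limma adjusted p = 0.0241), and it was the only member called, where 1.66% of all genes were called lower and 2.34% higher. That scaling uses the members' own values, RPL4 included, and removes the variation they share. It is therefore no independent support for the call. Of the other members described, RPS9 and RPLP1 had the lowest adjusted p on that scale, with changes of 0.25 (0.0756) and 0.23 (0.101).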

How the data were processed

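Per the labels' protocols, ribosomal RNA was removed before stranded library preparation. The authors deposited FPKM per gene symbol for 6 libraries; the submitters' processing notes name TopHat, Cufflinks, Cuffdiff and build hg38 and give no versions. How strand was used in counting, and whether libraries were scaled to each other, is not given in the sources used here. Each sample column was used.

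The 11598 of 23290 genes whose mean reached 1 FPKM were tested on log2(FPKM + 1), which understates changes of low genes, with limma 3.58.1 in R 4.3.3 (mean trend, two-sided, Benjamini-Hochberg over all tested genes, called under 0.05). FPKM give no counts, so no count test or counting interval was used.

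The members and gene lists were chosen with earlier results of these data known. Named genes were a fixed set of 20 members, passing members, the 5 highest and 3 lowest, up to 4 passing genes of each other list, and the 5 most like the family. RPL14, RPL21, RPL27A, RPL28, RPS7, RPS9, RPS14, RPS15A, MAX, MRPL35, NOP56, TSR1, EEF1B2, ETF1, MYC and MTOR were named after their values were seen. A few genes of the members and lists are not reported here.

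Same-numbered libraries deviated together (correlations across genes of 0.397, 0.266 and 0.291), so a fit with the replicate number as a block stands beside the unpaired one where it changes a call, on that evidence and with no label that says so. Over the 76 members alone the correlations were -0.0652, 0.698 and 0.345. A correlation across genes leaves out a shift that all members share. In the first pair the median member stood above its own mean in both libraries (log2 scale, 0.15 in shC8 1 and 0.11 in shCTR 1). Genes, pseudogenes and small nucleolar RNAs are from GENCODE 29 (GRCh38), starts from RefSeq (GRCh38.p14, 250 bases before to 50 after the start). The script was tested on simulated data.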

Additional observations from a re-analysis of the deposited data

How the results depend on the processing

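The choices varied were the pseudocount (0.1), the filter (none, or a mean of 5 FPKM), the scaling (quantile, median-of-ratios, equal sums without small RNA genes), the trend, the replicate block, the column number range as a term, each library left out in turn and, chosen after seeing the data, columns scaled to the members. The count of members higher in shC8 was 0 under all of them. The count of members lower was 1, except 0 with no filter, 0 with the range term, 8 with the replicate block and 0 to 1 with a library left out. Genes called higher numbered 828, but 1862 with the replicate block, 271 scaled to the members and 261 to 699 with a library left out. Genes called lower numbered 573, but 1224 with the block, 192 scaled to the members and 216 to 647 with a library left out. Higher genes made up 59.1% of the calls, and 43.1% with median-of-ratios scaling, where the median change of all genes was -0.01 in place of 0.04. The block changed no call of a named member other than those given.

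Members near 0 changed sign. With median-of-ratios scaling RPL37A was at -0.0478 and RPL10 at -0.0465, and with quantile normalization RPL10 was at -0.00260 and RPL3 at 0.00389. With the range term RPL3 was at 0.0346, RPS23 at 0.0543, RPL23 at 0.00257, RPS3 at 0.0282 and RPS19 at 0.0536. Scaled to the members, RPL3 was at 0.0169, RPS23 at 0.0328, RPS3 at 0.00963 and RPS19 at 0.0155. With a library left out the ranges were -0.247 to 0.0131 for RPL26, -0.0696 to 0.0550 for RPL37A, -0.0200 to 0.189 for RPL13, -0.115 to 0.0659 for RPS23, -0.146 to 0.0334 for RPL23, -0.129 to 0.0367 for RPS3, -0.160 to 0.0634 for RPS19, -0.0707 to 0.140 for RPLP2, -0.127 to 0.0874 for RPL10, -0.118 to 0.0494 for RPL3 and -0.00347 to 0.125 for RPL39. The cause was not tested. Of 496 values for named members, 449 kept direction and side of the threshold. Of these members only RPL4 was called in the main fit, so for the rest keeping the side meant staying uncalled. RPL4 kept its call in 1 of the 6 fits without a library, and lost it with no filter or with the range term. Of 271 values for called genes of the other lists, 206 stayed called and 65 did not. Scaled to the members, EFTUD1, NOP58, RPS6KB1, MRPS31, GAS5, HNRNPA1, EEF2K and EIF4E2 lost their calls. With no filter WDR12, HNRNPA1, DEPTOR and MRPS31 did, without a trend WDR12, with quantile normalization or the range term HNRNPA1, and with median-of-ratios scaling EIF4E2. The depth behind each FPKM is unknown, and with 3 libraries a group most log2 changes under 0.25 were unresolved.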
